A study of Mus musculus with 12 samples.

Results

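The transcripts described here are those of the epidermal growth factor (EGF) receptor family, its ligands and one inhibitor, in a mouse lung tumour line sorted by dye efflux. The 9 listed genes were the receptor genes Egfr, Erbb2 and Erbb3, the ligand genes Areg, Ereg, Hbegf, Tgfa and Btc, and the inhibitor gene Errfi1, and they were picked by gene symbol. Every probe set that the platform annotation pairs with 1 of these symbols alone was used, and the one with the highest mean over the 12 arrays stood for its gene. That gave 8 of 18193 genes, read from 20 of 45101 probe sets, and Areg is not analysed here.

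The ErbB receptors are membrane tyrosine kinases that pair up when a ligand binds and then drive the Ras, Raf and ERK cascade and the PI3 kinase pathway. Their ligands are made as membrane proteins and are released by surface proteases. In the lung, EGF receptor signalling serves epithelial growth and repair, and in lung tumours the receptor genes are often mutated or amplified. Ligand genes and Errfi1 are also known as targets of the ERK pathway, so that a signal from the receptor can raise both its own ligands and its own inhibitor.

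A2C12 cells come from a C57BL/6 mouse lung tumour of a double transgenic animal with c-myc and c-raf, and every group carries both transgenes. The side population (SP) keeps little Hoechst dye, and the other sorted cells are called non-SP. The 4 groups were SP anti-EpCAM, non-SP anti-EpCAM, SP untreated and non-SP untreated, with 3 biological replicates each. Treated cells had the antibody against the adhesion protein EpCAM at 100 µg/ml for 48 h, and cells were stained with the dye. The protocol also names staining with reserpine, an inhibitor of the dye efflux, and does not say for single samples whether it was present. The groups rest on 1 cell line, and the promoter behind the transgenes is not given in the sources used here. Values are log2 RMA values, a summary of the probes of one probe set, and a difference of 1 is a 2-fold change. They were measured on RNA of whole sorted fractions, where fewer expressing cells and less RNA per cell cannot be told apart.

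Array medians ran from 5.72 to 6.06. Arrays of both fractions with one treatment and number deviated together from their group means, with correlations across genes from 0.55 to 0.84, and are called a culture here, which the labels do not state. In the anti-EpCAM culture of replicate 2 actin probe sets at the 3' end exceeded those at the 5' end by 1.03 in SP and 0.895 in non-SP cells, and elsewhere by at most 0.733. Of 7 general epithelial markers Krt19 was highest, with a mean of 11.71, Epcam, the target of the antibody, had 8.11, and Cldn4 and Cldn7 lay below every array median, at 5.43 and 5.57. Of 8 alveolar type II markers 4 lay below every array median, Sftpc, Nkx2-1, Sftpa1 and Sftpd, and 4 above, from Napsa at 6.76 to Abca3 at 9.01. Of 7 fibroblast markers 5 had means from 9.27 to 12.58, while Lum and Thy1 had 4.15 and 5.28. Of 7 leukocyte and macrophage markers Csf1r, Cd14 and Cd68 had 9.98, 8.94 and 7.33, and the other 4 ran from 3.42 in Ptprc to 4.87. Their part in the results was not tested.

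None of the 8 measured genes passed limma at an adjusted p under 0.05, either between SP and non-SP cells or between antibody-treated and untreated cells. The 2 largest differences were those of Erbb3, at -0.34, and Tgfa, at 0.34, both in SP cells with the antibody against SP cells without it, and both 95% intervals included 0. That order depended on the scaling, since with centred arrays they were -0.14 and 0.53, and Ereg in SP cells, at 0.37, and Btc in non-SP cells, at 0.36, were then further from 0 than Erbb3. The levels of Ereg, Tgfa, Btc, Hbegf and Egfr varied mainly from culture to culture. Over all genes the median share of variation between cultures of one treatment was 66.4%. With centred arrays it was 67.7%, and Tgfa lay below it at 63.9%. The plot of array values by group shows each array.

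**Figure D1:**
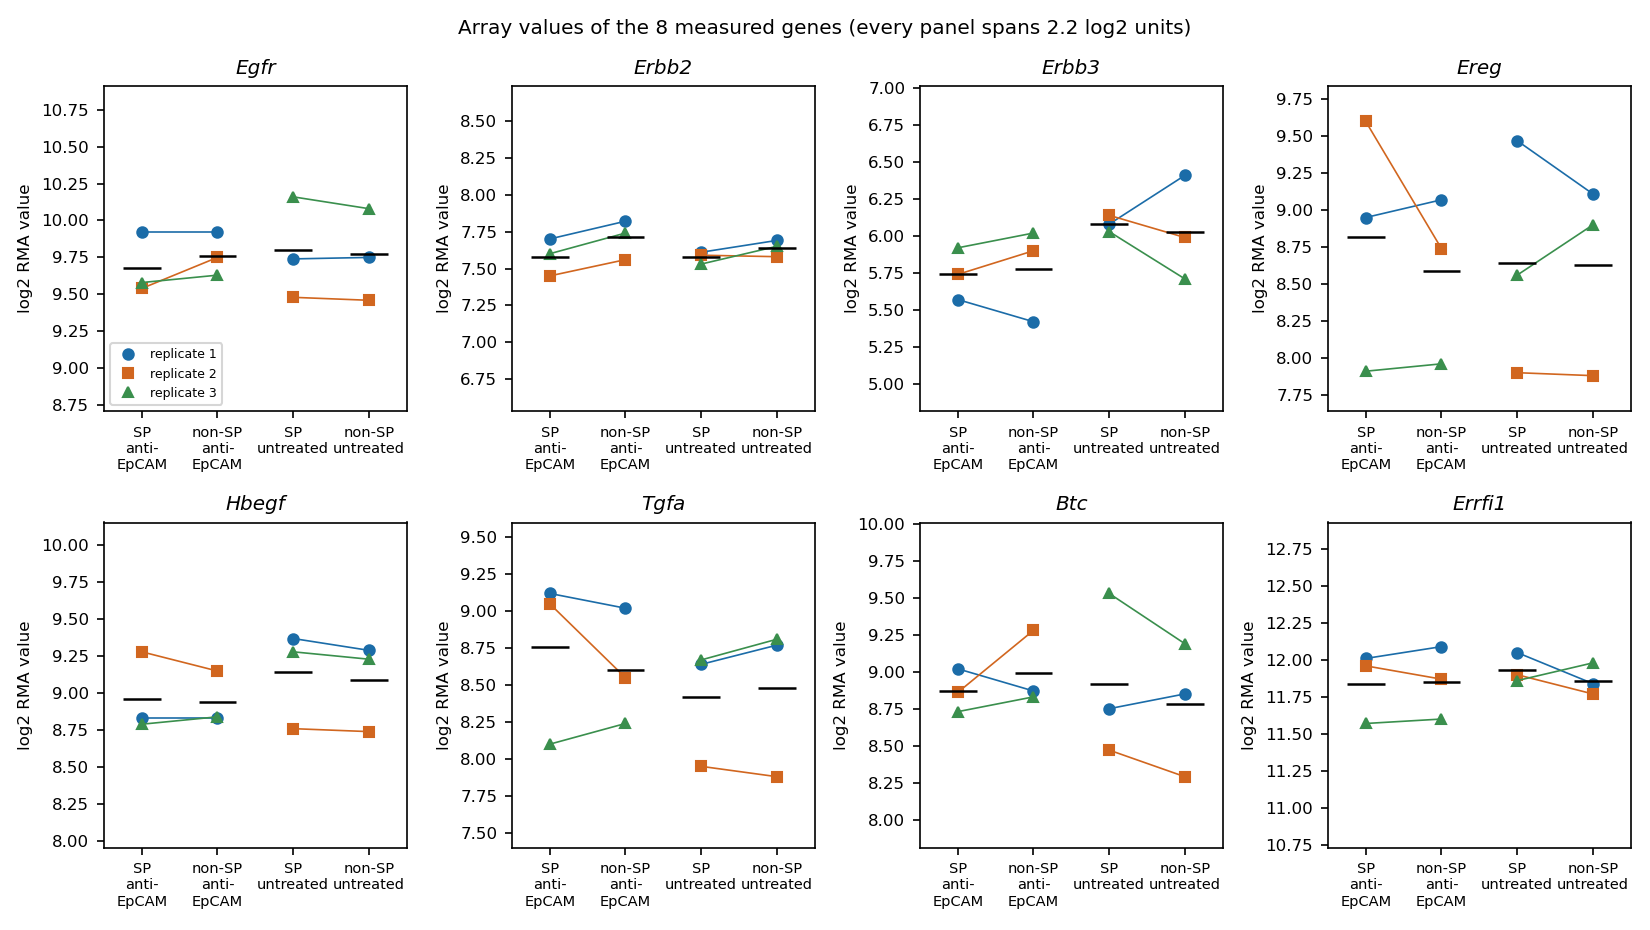
Log2 RMA value (y axis) of the 8 measured genes in the 4 groups (x axis), 1 point per array, with the group mean as a black bar and a line joining both fractions of one culture. Group means lie close together, while single arrays of Ereg range from 7.88 to 9.60.

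Egfr encodes the receptor for EGF and for the ligands Areg, Ereg, Hbegf, Tgfa and Btc. Its log2 values were 9.92, 9.54 and 9.58 in SP anti-EpCAM cells and 9.92, 9.75 and 9.63 in non-SP anti-EpCAM cells. In untreated cells they were 9.74, 9.48 and 10.16 in SP and 9.75, 9.46 and 10.08 in non-SP. The highest and the lowest arrays were both untreated, and all groups overlapped. Over both treatments SP minus non-SP was -0.03 ± 0.15 (SE), with a 95% interval from -0.35 to 0.30. This interval was -0.17 to 0.12 with each culture as a block. Over culture means anti-EpCAM minus untreated was -0.06 ± 0.20 (SE), with an interval from -0.51 to 0.39, but 0.11 with each array centred on its median and 0.05 with arrays quantile normalized once more.

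Erbb2 encodes the receptor with no known ligand of its own, which serves as partner to the others. It had values of 7.70, 7.45 and 7.60 in SP anti-EpCAM cells and 7.82, 7.56 and 7.74 in non-SP anti-EpCAM cells. Untreated cells had 7.61, 7.59 and 7.53 in SP and 7.69, 7.58 and 7.65 in non-SP. These 12 values spanned 0.37 log2 units, against a median span of 0.85 over all genes. Erbb2 was lower in the SP array of 5 of 6 cultures and Hbegf higher in 5 of 6, a count not made over all genes. The sum of squares between fractions made up 24.8% of the Erbb2 total, against a median of 1.7% over all genes. The difference was -0.10 ± 0.10 (SE), with an interval from -0.31 to 0.12, and the adjusted p was 1 by limma. With each culture as a block the interval ran from -0.24 to 0.04 and the adjusted p was 0.95. Over all genes, 1.47% had the same direction in every one of the 6 cultures, and none of the 8 family genes did.

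Erbb3 encodes a receptor for neuregulins whose kinase is weak. Its values were 5.57, 5.74 and 5.92 in SP anti-EpCAM cells, against 6.08, 6.14 and 6.03 in SP untreated cells. All 3 treated SP arrays lay below all 3 untreated ones. In non-SP cells they were 5.42, 5.90 and 6.02 with the antibody and 6.41, 5.99 and 5.71 without it, and there the groups overlapped. Anti-EpCAM minus untreated was -0.34 ± 0.21 (SE) in SP cells, with an interval from -0.79 to 0.11 and an adjusted p of 1 by limma, and -0.26 ± 0.21 (SE) in non-SP cells, with an adjusted p of 0.988. With centred arrays these were -0.14 in SP and -0.11 in non-SP cells. Treated SP arrays lay wholly below untreated ones for 8.04% of all genes, and the median change of all genes in SP cells was -0.12. Of the 8 genes, Erbb3 was the 1 whose groups did not overlap there, against 8.47% of all genes in either direction.

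The other Erbb3 probe set showed the same split in SP cells with a larger gap. Its values were 4.62, 5.16 and 4.90 in SP anti-EpCAM cells, against 6.07, 5.75 and 5.50 in SP untreated cells. In non-SP cells it had 4.72, 5.95 and 4.74 with the antibody, against 5.79, 5.48 and 5.37 without. The array that overlapped with the untreated group there was replicate 2, of the culture with the largest actin 3' to 5' difference. In a fit over all probe sets its difference was -0.88 ± 0.30 (SE) in SP cells, with an adjusted p of 0.923 by limma, and -0.41 ± 0.30 (SE) in non-SP cells, with an adjusted p of 0.97. Without the anti-EpCAM replicate 2 culture the non-SP difference was -0.82, and leaving out 1 array at a time moved it between -0.82 and -0.20. This probe set was looked at after seeing the data, and the part of the actin difference was not tested. With centred arrays the differences were -0.69 in SP and -0.27 in non-SP cells. Of all probe sets, 8.79% had treated SP arrays wholly below the untreated ones. Both Erbb3 probe sets had means near or below the array medians, at 5.91 and 5.34.

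Ereg encodes epiregulin, a ligand of the EGF receptor and of ErbB4. Its values were 8.95, 9.60 and 7.91 in SP anti-EpCAM cells and 9.07, 8.74 and 7.96 in non-SP anti-EpCAM cells. In untreated cells they were 9.47, 7.90 and 8.56 in SP and 9.11, 7.88 and 8.90 in non-SP. All groups overlapped, and the SDs were 0.86, 0.57, 0.79 and 0.66 in the same order (n = 3 each). SP minus non-SP was 0.12 ± 0.34 (SE) over both treatments, with an interval from -0.62 to 0.87. This interval was -0.20 to 0.45 with each culture as a block. The mean of 0.12 rested on the anti-EpCAM culture of replicate 2, where the SP array was 0.86 higher than its partner. Without that culture the mean was -0.04. Over culture means anti-EpCAM minus untreated was 0.07 ± 0.39 (SE), with an interval from -0.81 to 0.95, and -0.17 without that culture.

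Tgfa encodes transforming growth factor alpha, a ligand of the EGF receptor made by many epithelial tumours. It had values of 9.12, 9.05 and 8.10 in SP anti-EpCAM cells and 9.02, 8.55 and 8.24 in non-SP anti-EpCAM cells. Untreated cells had 8.64, 7.95 and 8.67 in SP and 8.77, 7.88 and 8.81 in non-SP. In each treatment 1 culture was well below the other 2, namely replicate 3 with the antibody and replicate 2 without. Anti-EpCAM minus untreated was 0.34 ± 0.33 (SE) in SP cells, with an interval from -0.38 to 1.06, and 0.12 ± 0.33 (SE) in non-SP cells. With centred arrays these were 0.53 and 0.26, and leaving out 1 array at a time moved the value in SP cells between 0.10 and 0.67. Its adjusted p was 1 in SP cells and 0.989 in non-SP cells by limma. The other Tgfa probe sets differed by -0.31 and 0.04 in SP cells and by 0.09 and -0.06 in non-SP cells, so the positive value in SP cells was not shared by all of them.

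Btc encodes betacellulin, which binds the EGF receptor and ErbB4. Its values were 9.02, 8.86 and 8.73 in SP anti-EpCAM cells and 8.87, 9.28 and 8.83 in non-SP anti-EpCAM cells. In untreated cells they were 8.75, 8.47 and 9.53 in SP and 8.85, 8.29 and 9.19 in non-SP. The untreated cultures were spread over 0.99 log2 units and the treated ones over 0.29. SP minus non-SP over both treatments was 0.01 ± 0.20 (SE), with an interval from -0.42 to 0.43 (-0.02 with arrays quantile normalized once more). The interval was -0.21 to 0.22 with each culture as a block. Over culture means anti-EpCAM minus untreated was 0.08 ± 0.24 (SE), but 0.25 with centred arrays and 0.20 with arrays quantile normalized once more, and the other Btc probe set, with a mean of 6.12, gave -0.15.

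Hbegf encodes the heparin-binding EGF-like growth factor, which is also known as the diphtheria toxin receptor in humans. Its values were 8.83, 9.28 and 8.79 in SP anti-EpCAM cells and 8.83, 9.15 and 8.84 in non-SP anti-EpCAM cells. In untreated cells they were 9.37, 8.76 and 9.28 in SP and 9.29, 8.74 and 9.23 in non-SP. Both fractions of a culture lay within 0.12 of each other, and the groups overlapped throughout. SP minus non-SP was 0.04 ± 0.15 (SE), with an interval from -0.30 to 0.37, or from -0.11 to 0.18 with each culture as a block. Over culture means anti-EpCAM minus untreated was -0.16 ± 0.21 (SE), but 0.01 with centred arrays. The other Hbegf probe set ordered the treated cultures differently, with 9.20, 8.62 and 9.22 in SP and 8.84, 8.33 and 9.19 in non-SP anti-EpCAM cells, so that replicate 2 was the highest in one probe set and the lowest in the other.

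Errfi1 encodes an adaptor, also called Mig6, that binds active ErbB kinases and blocks them. It had values of 12.01, 11.96 and 11.57 in SP anti-EpCAM cells and 12.09, 11.87 and 11.60 in non-SP anti-EpCAM cells. Untreated cells had 12.05, 11.90 and 11.86 in SP and 11.84, 11.77 and 11.98 in non-SP. The 2 lowest arrays were those of anti-EpCAM replicate 3, and all groups overlapped. SP minus non-SP was 0.03 ± 0.12 (SE), with an interval from -0.23 to 0.30, or from -0.13 to 0.19 with each culture as a block. Over culture means anti-EpCAM minus untreated was -0.05 ± 0.17 (SE), with an interval from -0.44 to 0.34, but 0.12 with centred arrays and 0.04 with arrays quantile normalized once more.

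The first comparison asks whether the dye-excluding cells differ from the rest. With the antibody, SP minus non-SP of the 8 genes ran from -0.13 in Erbb2 to 0.23 in Ereg, with a median of -0.02 against -0.03 over all genes. Of the 8 genes 0 were higher and 0 lower by limma, against 0% of all genes in either direction. At an unadjusted p under 0.05 there were 0 of 8, against 0.698% of all genes, and the lowest was 0.383 for Erbb2. In untreated cells the differences ran from -0.06 in Erbb2 and Tgfa to 0.14 in Btc, with a median of 0.04 against 0.01 over all genes. There 0 of 8 passed in either direction, against 0% of all genes. At an unadjusted p under 0.05 there were again 0 of 8, against 0.0220% of all genes, and the lowest was 0.627 for Btc. In both comparisons 7 of 8 intervals stayed within a 2-fold change, and that of Ereg extended 1.05 log2 units to either side of its value. With each culture as a block the interval of Ereg ran from -0.23 to 0.69 with the antibody and from -0.45 to 0.47 without it, and all 8 intervals stayed within a 2-fold change. In both, 0 of 8 genes had groups that did not overlap, against 2.35% of all genes with the antibody and 2.37% without it. Over both treatments all 8 intervals stayed within a 2-fold change, and 0 of 8 had an unadjusted p under 0.05, against 0.104% of all genes. The shares of all genes by unadjusted p come from the fit without a block, although both fractions of a culture deviated together.

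**Figure D2:**
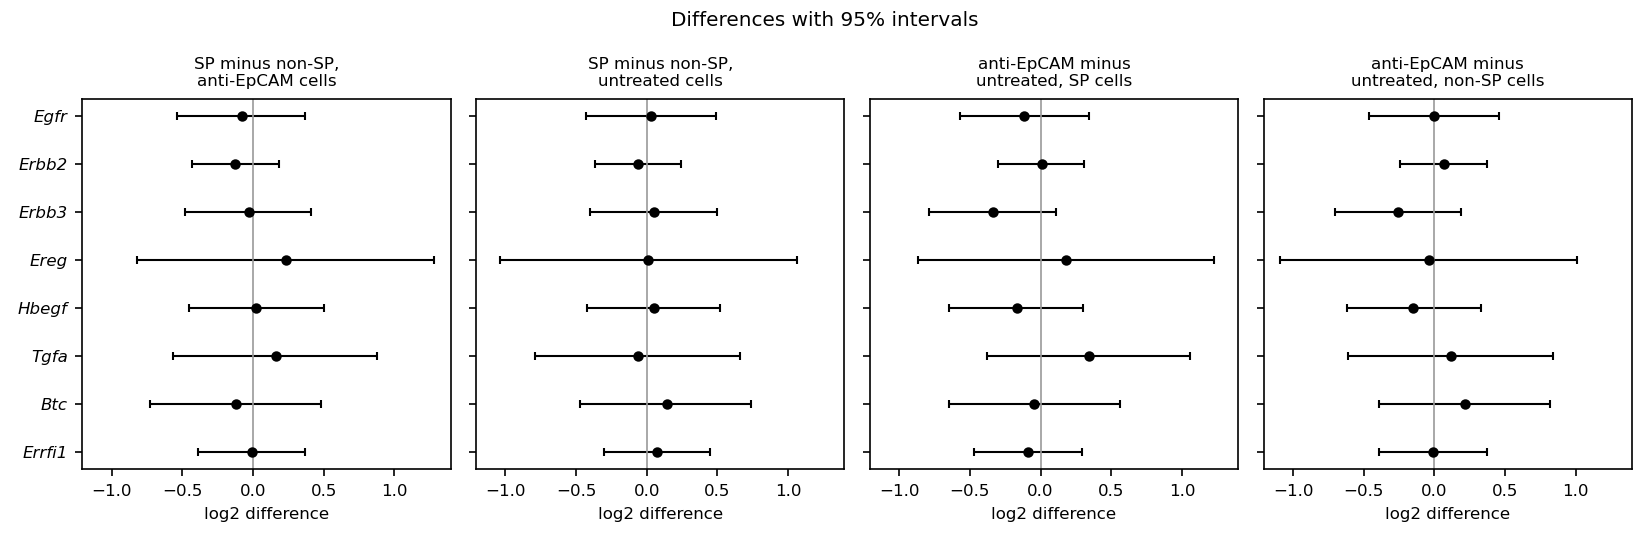
Log2 difference (x axis) of each gene (y axis) in the 4 comparisons, with 95% intervals from limma over all 12 arrays, without a block. Every interval includes 0, and those of Ereg are the widest.

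The second comparison sets antibody-treated against untreated cells of one fraction. In SP cells the differences ran from -0.34 in Erbb3 to 0.34 in Tgfa, with a median of -0.07 against -0.12 over all genes. In non-SP cells they ran from -0.26 in Erbb3 to 0.22 in Btc, with a median of -0.01 against -0.10 over all genes. By limma 0 of 8 genes passed in either direction in both fractions, against 0% of all genes. At an unadjusted p under 0.05 there were 0 of 8 in SP cells, against 4.59% of all genes, and 0 of 8 in non-SP cells, against 3.22%. In non-SP cells 0 of 8 genes had groups that did not overlap, against 7.81% of all genes. Over culture means 0 of 8 passed and 0 of 8 had an unadjusted p under 0.05, against 2.53% of all genes, with a lowest of 0.145 for Erbb3. There 0 of 8 had groups that did not overlap, against 7.56% of all genes, and all 8 intervals stayed within a 2-fold change. With the antibody, the mean level of the 8 measured alveolar markers per array ran from 6.23 to 6.64 in SP cells. In non-SP cells it ran from 6.40 to 6.55. Without the antibody these ranges were 6.56 to 6.74 and 6.57 to 6.84. Endothelial markers in SP cells ran from 4.70 to 4.85 with the antibody and from 4.89 to 5.16 without it, and overlapped in non-SP cells. Ranges of the general epithelial, airway, leukocyte and fibroblast markers overlapped between treatments in both fractions. Arrays were not centred for these means, and the part of the markers in the results was not tested.

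The third comparison asks whether the antibody acted differently in the 2 fractions. The interaction, which is the antibody difference in SP minus that in non-SP cells, ran from -0.26 in Btc to 0.22 in Ereg and Tgfa. By limma 0 of 8 genes passed in either direction, against 0% of all genes, and the lowest unadjusted p was 0.517 for Btc. The widest interval, that of Ereg, extended 1.48 log2 units to either side of its value. With each culture as a block the interval of Ereg ran from -0.43 to 0.87. At an unadjusted p under 0.05 there were 0 of 8, against 0.236% of all genes, both in the fit without a block.

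Other probe sets of the family gave 12 further readings. The 6 others of Egfr differed by -0.51 to -0.02 with the antibody in SP cells, and the lowest of these, from a probe set with a mean of 6.86, had an unadjusted p of 0.0374 and an adjusted p of 0.938 by limma. That probe set had 6.38, 6.39 and 6.91 in SP anti-EpCAM cells, against 7.12, 6.81 and 7.28 in SP untreated cells. Its culture means did not overlap between the treatments, but only by a near tie. For 7.87% of all probe sets treated culture means lay wholly below untreated ones. In non-SP cells the same probe set had 7.19, 6.94 and 6.50 with the antibody and 6.88, 6.77 and 7.11 without, a difference of -0.04. The other Errfi1 probe set differed by -0.26 in SP and by -0.15 in non-SP cells, and 0 of the 20 probe sets passed by limma in any comparison.

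**Figure D3:**
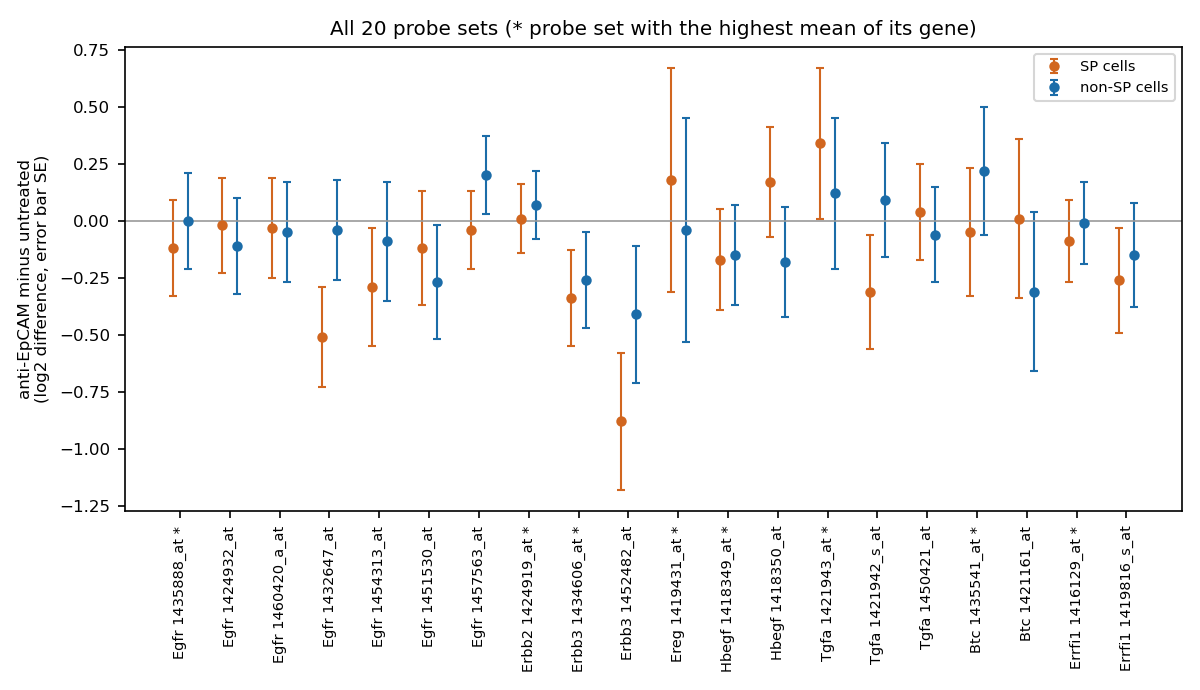
Anti-EpCAM minus untreated (log2 difference, y axis) with its standard error for all 20 probe sets (x axis), in SP and non-SP cells. The other Erbb3 probe set lies lowest in SP cells at -0.88, and probe sets of one gene can lie on both sides of 0.

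As deposited, cultures accounted for most of the variation of these genes except Erbb3. The sum of squares between cultures of one treatment made up 93.7% of the total for Egfr, 88.0% for Ereg, 87.0% for Hbegf, 84.4% for Tgfa, 83.8% for Btc and 81.7% for Errfi1. Over all genes its median was 66.4%. Erbb2 and Erbb3 lay below that median, at 64.8% and 47.9%, and Erbb3 had 33.6% between treatments. With centred arrays the shares of the first 6 genes ran from 63.9% in Tgfa to 89.5% in Hbegf, against a median of 67.7%. Errfi1, at 67.4%, also lay below that median. Erbb3 then had 65.8% and Erbb2 43.3%, so that Erbb2 rather than Erbb3 had the lowest share.

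**Figure D4:**
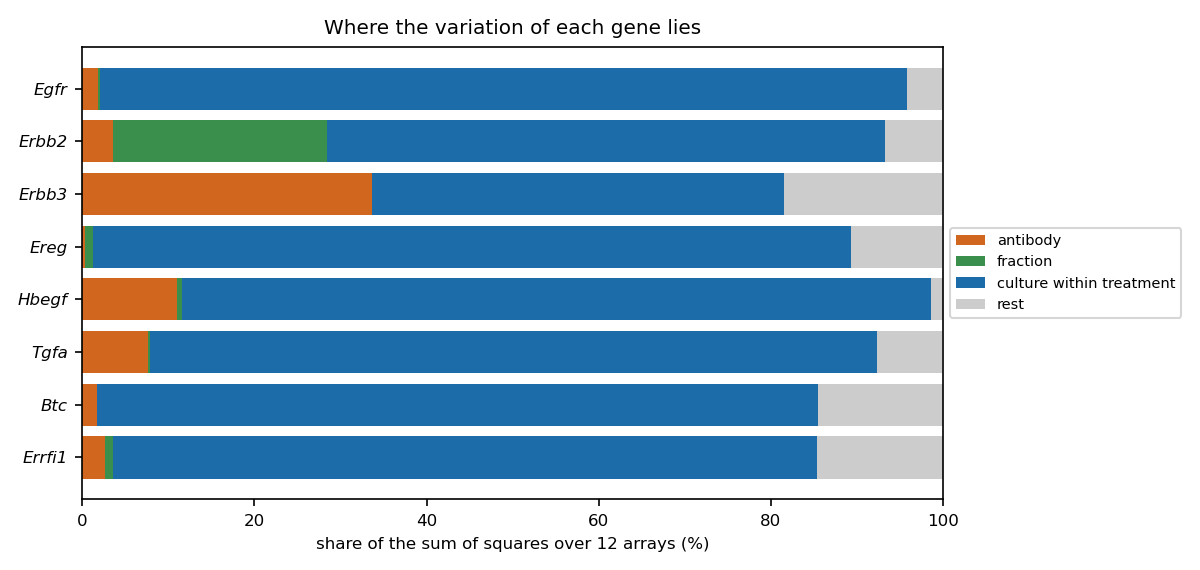
Share of each gene's sum of squares over 12 arrays (%, x axis) that lies between treatments, between fractions, between cultures of one treatment and in the rest. As deposited, culture takes the largest share in every gene, from 47.9% in Erbb3 to 93.7% in Egfr.

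The same cultures were low for several members. The means of anti-EpCAM replicate 3 and untreated replicate 2 were the 2 lowest of the 6 cultures for 6 of 8 genes, namely Egfr, Errfi1 and the 4 ligand genes, against 18.2% of all genes. Ereg was at 7.93 and 7.89 there and between 8.73 and 9.29 in the other cultures. Tgfa was at 8.17 and 7.91 there and between 8.70 and 9.07 elsewhere. For Egfr, Hbegf and Btc the gaps were narrow. Anti-EpCAM replicate 3 had 9.61, 8.81 and 8.78 in that order, and the next culture up had 9.64, 8.83 and 8.80. For Errfi1 untreated replicate 2 had 11.84, against 11.91 in the next culture up. These cultures were picked after their values were seen. The count depended on the scaling, since with centred arrays it held for 2 of 8 genes, Ereg and Tgfa, against 8.98% of all genes, and with arrays quantile normalized once more for 3 of 8, Ereg, Tgfa and Errfi1, against 12.8%. Among other probe sets of the members it held for 4 of 12. Among the 16 ERK target and feedback genes it held for 5, or 31.2%, as deposited, for 2 with centred arrays, Dusp6 and Myc, and for 3 with arrays quantile normalized once more. As deposited it held for 4 of 20 adaptor genes, 3 of 14 turnover genes, 2 of 7 shedding genes and 2 of 7 other receptor and ligand genes.

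**Figure D5:**
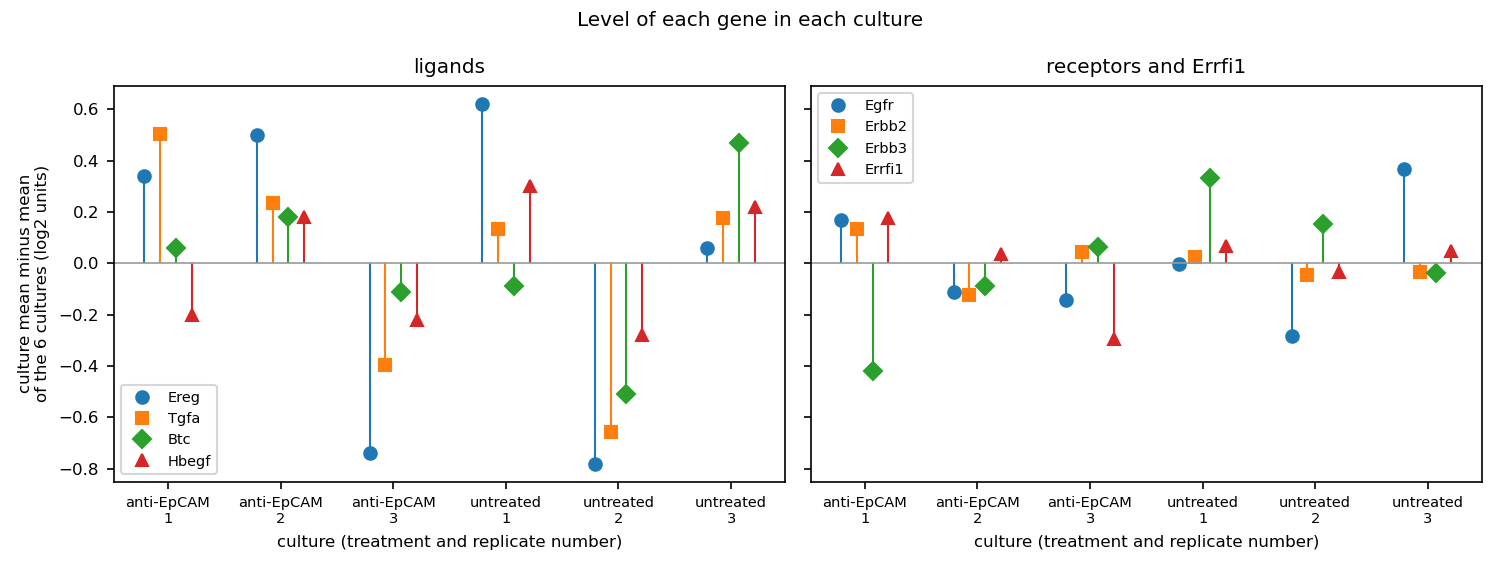
Culture mean over both fractions minus the mean of the 6 cultures (log2 units, y axis) by culture (x axis), for the ligand genes and for the receptor genes with Errfi1. Ereg is lowest in anti-EpCAM replicate 3, at 7.93, and untreated replicate 2, at 7.89.

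Promoter windows of Egfr, Tgfa and Errfi1 are shown because these genes were low in the same cultures as deposited, Egfr narrowly. Their windows also held a motif, which was the other condition. They are the 250 bases before a transcript start, on the gene's strand, from RefSeq (GRCm38.p6). Windows of 5 of the 8 genes were searched, and the promoters of the remaining genes were not analysed. Capitals mark motifs that were searched on both strands. The GC box was spelled GGGCGG. The sequence used for the cAMP response element was TGACGTCA. For the TATA box the letters were TATAAA.
Egfr, chr11:16751953-16752202: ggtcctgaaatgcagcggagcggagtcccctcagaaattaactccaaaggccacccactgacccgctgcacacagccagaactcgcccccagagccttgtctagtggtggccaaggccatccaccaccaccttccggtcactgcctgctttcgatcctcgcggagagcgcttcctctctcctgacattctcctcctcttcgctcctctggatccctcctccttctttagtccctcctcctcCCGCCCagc
Tgfa, chr6:86194972-86195221: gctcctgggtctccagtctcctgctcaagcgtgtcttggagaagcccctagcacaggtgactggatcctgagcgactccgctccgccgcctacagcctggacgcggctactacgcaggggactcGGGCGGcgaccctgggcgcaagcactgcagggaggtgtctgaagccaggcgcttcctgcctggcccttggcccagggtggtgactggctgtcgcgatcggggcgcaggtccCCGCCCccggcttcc
Errfi1, chr4:150854820-150855069: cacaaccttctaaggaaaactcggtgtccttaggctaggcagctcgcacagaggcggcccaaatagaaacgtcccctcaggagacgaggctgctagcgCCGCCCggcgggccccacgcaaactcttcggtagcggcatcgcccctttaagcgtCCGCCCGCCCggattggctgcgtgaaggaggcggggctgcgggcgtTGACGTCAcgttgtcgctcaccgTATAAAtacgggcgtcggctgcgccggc

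Egfr had 1 GC box, Tgfa 2 and Errfi1 3, of which a pair overlapped, and GC boxes were in 32.7% of 32851 such windows. Errfi1 also had a cAMP response element, held by 1.55% of windows, and a TATA box, held by 12.4%. The E-box bound by Myc (CACGTG, in 6.02% of windows) and the AP-1 site (TGANTCA, in 6.75%) were searched in the same way and were not in the 6 windows of the 5 genes. Another Errfi1 window and those of Btc and Erbb2 held none of the 5 motifs. These matches describe letters only.

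Ereg and Btc lie on chromosome 5, and no other protein-coding genes than Areg and the ligand gene Epgn lie within the stretch from Epgn to Btc. Epgn encodes epigen, another ligand of the EGF receptor, and had the lowest p of the 7 other ErbB receptor and ligand genes in SP cells. It differed by -0.77 ± 0.23 (SE) with the antibody in SP and by -0.33 ± 0.23 (SE) in non-SP cells, with adjusted p of 0.994 and 0.988 by limma. Its mean was 4.63, below every array median.

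Other genes of the pathway were read in 5 lists. Of 7 other ErbB receptor and ligand genes, 7 ligand shedding genes, 20 adaptor and relay genes, 14 genes of receptor turnover and inhibition and 16 ERK target and feedback genes, 0 were higher and 0 lower by limma in any comparison. With the antibody in SP cells the list medians were -0.13, -0.13, -0.03, -0.19 and 0.01 in that order, against -0.12 over all genes. All 16 ERK target and feedback genes lay above that median there, with Spred2, an inhibitor of Raf activation, at 0.22 ± 0.18 (SE) and an adjusted p of 1. Of these genes 10 were above 0 and 6 below. The median was also exceeded by 16 of 20 adaptor genes and 6 of 8 members. For the other receptor and ligand, shedding and turnover genes it was 3 of 7, 3 of 7 and 6 of 14. Among genes with a mean of at least 6 the median was -0.10, and Ier3, at -0.11, lay below it. In non-SP cells 13 of the 16 ERK target and feedback genes exceeded the all-gene median of -0.10. Their own median was 0.00, with 8 above 0 and 8 below. There Spry4, a feedback inhibitor of the pathway, had the lowest p of the list, at -0.59 ± 0.49 (SE) with an adjusted p of 0.988. Both contrasts use arrays of the same cultures. Among turnover genes Grb10, an adaptor that binds receptor tyrosine kinases, differed by -0.53 ± 0.23 (SE) in SP and by 0.14 ± 0.23 (SE) in non-SP cells, with adjusted p of 1 and 0.988. The mean of Grb10 was 4.93, below every array median.

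The genes with the lowest p in each list had adjusted p of 0.988 with the antibody in non-SP cells. They included the sheddase gene Adam10, at -0.32 ± 0.19 (SE), Sos2, an exchange factor for Ras, at -0.39 ± 0.24 (SE), and Socs4, of the suppressors of cytokine signalling, at -0.34 ± 0.18 (SE). The receptor gene Erbb4 had 0.29 ± 0.19 (SE) there with a mean of 3.08, below every array median. In SP cells the others were Rhbdf2, which helps sheddases mature, at -0.18 ± 0.16 (SE), and the kinase gene Map2k2, at -0.17 ± 0.18 (SE), both with an adjusted p of 1. Between fractions all had an adjusted p of 1. With the antibody they were Sos2 at 0.47, Grb10 at -0.38, Nrg3 at -0.29, Spred1 at 0.28 and Adam10 at 0.21, where Nrg3 had a mean of 3.69. Without it they were Grb10 at 0.29, Epgn at 0.25, Stat3 at -0.25, Spry2 at -0.17 and Adam17 at 0.13.

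The genes most like each member over the 12 arrays were found by Pearson's r among 10810 other genes with a mean of at least 6, clone and predicted names left out. These r values describe arrays that share cultures. Ereg was closest to Cyp4b1 and Abcc4, both at 0.98, and Tgfa to D11Wsu47e and Rapgef3, both at 0.97. Egfr was closest to Sox13 and Cct3, both at 0.96, and Errfi1 to Bcl10 and N4bp3, both at 0.96. Btc was closest to Sae1 at 0.95 and Spry1 at 0.94, Hbegf to Zswim1 at 0.95 and Gal3st2 at 0.94. Erbb2 was closest to Src at 0.93 and Sod1 at 0.90, Erbb3 to Plvap at 0.91 and Ppp1r1b at 0.89.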

How the data were processed

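Total RNA of 12 sorted samples (200 ng each, per the labels' protocols) was labelled with biotin and hybridised to Affymetrix mouse arrays. The authors deposited log2 values made with RMA, per the submitters' processing notes. The sources used here name no software, version or later scaling. Of 45101 probe sets, 34958 had 1 gene symbol in the platform annotation, 932 several and 9211 none. Without control probe sets, the one with the highest mean per symbol gave 18193 genes, with no filter on level.

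Differences were tested with limma 3.58.1 in R 4.3.3 (lmFit, eBayes, 4 group means over 12 arrays, no block, two-sided, Benjamini-Hochberg over all genes, threshold 0.05), and on 6 culture means for the antibody over both fractions. Replicate numbers pair the fractions: all 6 correlations of deviations were above 0.1, while those between treatments were from -0.38 to -0.01. On simulated data (anti-EpCAM against untreated in SP cells, 18193 genes) 53% of genes changed 2-fold and 97% of those changed 4-fold were recovered, with 8 false calls. The simulated arrays had independent noise and no shared cultures, so these rates need not hold for the real arrays. Alternatives were 2 other scalings, a mean of at least 6, all probe sets, trend and robust moderation, a replicate block, and leaving out each array or the anti-EpCAM culture of replicate 2. The number of arrays limits precision, and so does the fit without a block where fractions are compared. Without a block the median 95% interval between single groups reached 0.46 log2 units to either side. For SP against non-SP cells of one treatment it reached 0.27 when each culture was a block. Labels call the replicates biological, and nothing says how they were grown apart.

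The members and lists were chosen with earlier results of these data known. Named are the members, from each pathway list the gene with the lowest p in each of the 4 contrasts between single groups, and the 2 genes most like each member, clone and predicted names left out. Of the listed pathway genes, 5 are not analysed here. Figures and tables were made with Python 3.11.15, numpy 2.4.6, pandas 2.3.3 and matplotlib 3.10.9.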

Additional observations from a re-analysis of the deposited data

How the results depend on the processing

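The count of genes past the threshold was 0 in all 7 contrasts under all 19 alternatives, with a lowest adjusted p of 0.49 by limma. No value of the 8 genes passed either, with a lowest adjusted p of 0.551, for the other Erbb3 probe set. The filter on the mean left out Erbb3. The replicate block changed no call: the members' lowest adjusted p with it was 0.649 between fractions and 0.775 for the interaction. For the antibody its numbers do not pair the samples, and the lowest adjusted p was 0.872. Signs of values near 0 depended on scaling and on single arrays, and the cause was not tested. With centred arrays, SP minus non-SP in anti-EpCAM cells turned for Erbb3 to 0.01 and Errfi1 to 0.04. Anti-EpCAM minus untreated in non-SP cells turned for Egfr to 0.14, Ereg to 0.10 and Errfi1 to 0.13. Anti-EpCAM minus untreated in SP cells turned for Egfr to 0.08, Hbegf to 0.02, Btc to 0.15 and Errfi1 to 0.10. Anti-EpCAM minus untreated over culture means turned for Egfr to 0.11, Hbegf to 0.01 and Errfi1 to 0.12. After a further quantile normalization, SP minus non-SP in anti-EpCAM cells turned for Erbb3 to 0.02 and Hbegf to -0.04. Anti-EpCAM minus untreated in non-SP cells turned for Egfr to 0.14, Ereg to 0.13, Hbegf to 0.01 and Errfi1 to 0.09. Anti-EpCAM minus untreated in SP cells turned for Btc to 0.03. SP minus non-SP over both treatments turned for Btc to -0.02. Anti-EpCAM minus untreated over culture means turned for Egfr to 0.05 and Errfi1 to 0.04. Without the anti-EpCAM culture of replicate 2, SP minus non-SP in anti-EpCAM cells turned for Erbb3 to 0.03, Ereg to -0.09, Hbegf to -0.03, Tgfa to -0.01 and Btc to 0.02. Anti-EpCAM minus untreated in non-SP cells turned for Egfr to 0.01. Anti-EpCAM minus untreated in SP cells turned for Ereg to -0.22. SP minus non-SP over both treatments turned for Egfr to 0.01, Ereg to -0.04 and Tgfa to -0.04. Anti-EpCAM minus untreated over culture means turned for Ereg to -0.17. Leaving out 1 array at a time gave the following ranges. For SP minus non-SP in untreated cells they were -0.15 to 0.19 for Egfr, -0.11 to 0.24 for Erbb3, -0.40 to 0.39 for Ereg, -0.12 to 0.24 for Hbegf, -0.37 to 0.17 for Tgfa and -0.17 to 0.36 for Btc. For SP minus non-SP in anti-EpCAM cells they were -0.22 to 0.09 for Erbb3, -0.16 to 0.69 for Ereg, -0.13 to 0.13 for Hbegf, -0.03 to 0.49 for Tgfa, -0.21 to 0.02 for Btc and -0.14 to 0.13 for Errfi1. For anti-EpCAM minus untreated in non-SP cells they were -0.15 to 0.16 for Egfr, -0.42 to 0.28 for Ereg, -0.19 to 0.30 for Tgfa, -0.03 to 0.42 for Btc and -0.13 to 0.12 for Errfi1. For anti-EpCAM minus untreated in SP cells they were -0.27 to 0.07 for Egfr, -0.05 to 0.07 for Erbb2, -0.22 to 0.63 for Ereg, -0.27 to 0.26 for Btc and -0.17 to 0.05 for Errfi1. For SP minus non-SP over both treatments they were -0.12 to 0.05 for Egfr, -0.08 to 0.10 for Erbb3, -0.09 to 0.35 for Ereg, -0.05 to 0.13 for Hbegf, -0.10 to 0.21 for Tgfa, -0.15 to 0.12 for Btc and -0.03 to 0.10 for Errfi1. For anti-EpCAM minus untreated over culture means they were -0.07 to 0.21 for Ereg. The other fraction and antibody values kept their sign when any 1 array was left out, and for the interaction the count alone was recomputed. Erbb3 with the antibody ran from -0.43 to -0.25 in SP and from -0.42 to -0.07 in non-SP cells, and both other scalings gave -0.14 in SP cells. Its other probe set, an alternative chosen after seeing the data, ran from -1.02 to -0.73 in SP and from -0.82 to -0.20 in non-SP cells.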
